A study of Mus musculus with 25 samples.

Results

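The BTG/TOB family of antiproliferative genes was described in the *soleus* of mice with and without DNMT3A in muscle. Its 5 members, *Btg1*, *Btg2*, *Btg3*, *Tob1* and *Tob2*, were found by gene symbol among the 52636 genes of the count table, and all 5 passed the filter on low counts. The family had been chosen by its measured response to exercise in these same mice, so its levels at rest and after exercise are given as a description, with no p. Where calls for exercise are counted, the count is there for the record and supports nothing. The RNA was total RNA of 1 *soleus* per mouse, depleted of ribosomal RNA, in male and female C57BL/6 mice of 12 weeks. All mice carried floxed *Dnmt3a* alleles on both chromosomes. The WT mice had no Cre, and the KO mice, here called mD3AKO, had a Cre transgene driven by the promoter of muscle creatine kinase, which is active in muscle fibers, so that *Dnmt3a* may remain in other cells of the tissue. There were 5 WT and 7 mD3AKO mice at rest, which had been kept in a sham treadmill arena, and 7 WT and 6 mD3AKO mice killed 60 minutes after 1 bout of treadmill running. Of these, 13 mice were male and 12 female, and the comparisons ask whether exercise, the loss of DNMT3A and sex go with different levels of the family.

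BTG/TOB proteins share a conserved domain at their N terminus through which they bind the CAF1 deadenylases (CNOT7 and CNOT8) of the CCR4-NOT complex. By bringing this complex to messages, directly or through poly(A) binding protein, they promote shortening of poly(A) tails and decay of the message, and they slow entry into the cell cycle when present in excess. *Btg1* and *Btg2* encode short proteins, of which *Btg2* is known as an early response gene and a target of p53. *Tob1* and *Tob2* encode longer proteins whose C-terminal part binds poly(A) binding protein, and *Btg3* encodes a member that is also induced by p53.

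In mm10 the members lie on 5 chromosomes. *Btg2* (ENSMUSG00000020423.6) spans chr1:134075170-134079120 on the minus strand, *Btg1* (ENSMUSG00000036478.8) chr10:96617006-96622809 on the plus strand, *Tob1* (ENSMUSG00000037573.5) chr11:94211454-94215495 on the plus strand, *Tob2* (ENSMUSG00000048546.7) chr15:81848270-81858326 on the minus strand and *Btg3* (ENSMUSG00000022863.14) chr16:78359860-78377192 on the minus strand. No other gene of the count table overlaps any of them in its coordinates. The 250 bases before the transcription start in RefSeq (build GRCm38.p6) are shown for the members whose window holds the cyclic AMP response element TGACGTCA or its first 5 bases TGACG, since the members differ in this element. The windows are chr1:134079156-134079405 (minus strand) for *Btg2*, chr10:96616751-96617000 (plus strand) for *Btg1* and chr11:94211204-94211453 (plus strand) for *Tob1*, each written 5′ to 3′ with these letters, read on either strand, in capitals.
Btg2: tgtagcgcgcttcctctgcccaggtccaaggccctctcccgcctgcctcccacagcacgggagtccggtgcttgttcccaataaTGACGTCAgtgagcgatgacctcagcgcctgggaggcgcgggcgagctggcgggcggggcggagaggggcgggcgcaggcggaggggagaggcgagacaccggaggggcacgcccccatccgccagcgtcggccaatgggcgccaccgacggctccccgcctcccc
Btg1: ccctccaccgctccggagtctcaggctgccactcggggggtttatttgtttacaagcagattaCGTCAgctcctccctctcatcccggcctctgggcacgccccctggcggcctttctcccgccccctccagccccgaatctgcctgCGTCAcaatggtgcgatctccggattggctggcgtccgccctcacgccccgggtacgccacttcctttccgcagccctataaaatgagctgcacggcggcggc
Tob1: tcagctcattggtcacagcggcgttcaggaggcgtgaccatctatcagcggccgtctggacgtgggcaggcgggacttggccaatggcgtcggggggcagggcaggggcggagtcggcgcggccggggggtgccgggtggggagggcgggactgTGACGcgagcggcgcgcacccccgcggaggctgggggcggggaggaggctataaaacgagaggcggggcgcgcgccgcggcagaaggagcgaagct

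The whole element TGACGTCA stood 166 to 159 bases before the start of *Btg2* and in no other window of the family. Among all 32851 windows of the same length, 1.55% held it. The *Btg1* window held only TGACG, read on the other strand as CGTCA, at 187 to 183 and at 103 to 99 bases, and the *Tob1* window held it at 96 to 92 bases. TGACG was found in 17.8% of all windows, a count that includes those with the whole element. The TATA box TATAAA was found 26 to 21 bases before *Btg1* and 47 to 42 bases before *Tob1*, against 12.4% of all windows, and not before *Btg2*. TGANTCA, the element of AP-1 (6.75% of windows), was in no member's window. Neither of the windows of *Btg3* held TGACG or TATAAA, and the same held for that of *Tob2*, which lies within annotated exon and is not shown. These matches describe letters in a window and not binding.

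The libraries held 22671457 to 37431801 counts, and levels are given as CPM, the count scaled to the size of the library after TMM normalization, of which 1 stood for 32.2 reads in the median library. *Dnmt3a* was 116 ± 13.2 CPM (mean ± SD, n = 12; 93.3 to 130) in WT mice and 40.8 ± 5.86 CPM (n = 13; 34.5 to 53.8) in mD3AKO mice, without overlap. Mouse 15, a male mD3AKO mouse at rest, stood apart with the lowest depth and 39.5% of its counts on ribosomal RNA, against 7.76% to 13.0% in the others. Genes of slow muscle fibers were abundant in every library, at a summed level of 55007 to 79778 CPM over 8 genes.

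Compared per kilobase of exon, the members differed widely in level, and their order changed between rest and exercise. At rest *Tob1* was highest with a mean of 29.9 CPM per kb (24.4 to 45.8), followed by *Btg2* with 16.2 (8.99 to 30.5), *Tob2* with 10.0 (7.41 to 13.7), *Btg1* with 2.80 (2.23 to 3.27) and *Btg3* with 0.200 (0.120 to 0.337; n = 12). The first 3 overlapped with their neighbours in this order, although *Tob1* exceeded *Btg2* in 11 of 12 mice, and *Btg1* and *Btg3* were each apart from the gene above. After exercise *Btg2* led with 98.1 CPM per kb (23.7 to 197), ahead of *Tob2* with 29.7 (25.2 to 35.5) and *Tob1* with 25.1 (19.2 to 30.1), while *Btg1* stood at 2.53 and *Btg3* at 0.171 (n = 13). *Btg2* was above *Tob2* in 12 of 13 exercised mice, and *Tob2* above *Tob1* in 12 of 13. Dividing by the longest transcript in GENCODE M21 instead kept this order, with *Btg3* at 0.0957 and 0.0819 CPM per kb. These 2 values of *Btg3* are too low as levels, since that transcript has 3013 bases and reads were counted over 1439 bases of exon.

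**Figure D1:**
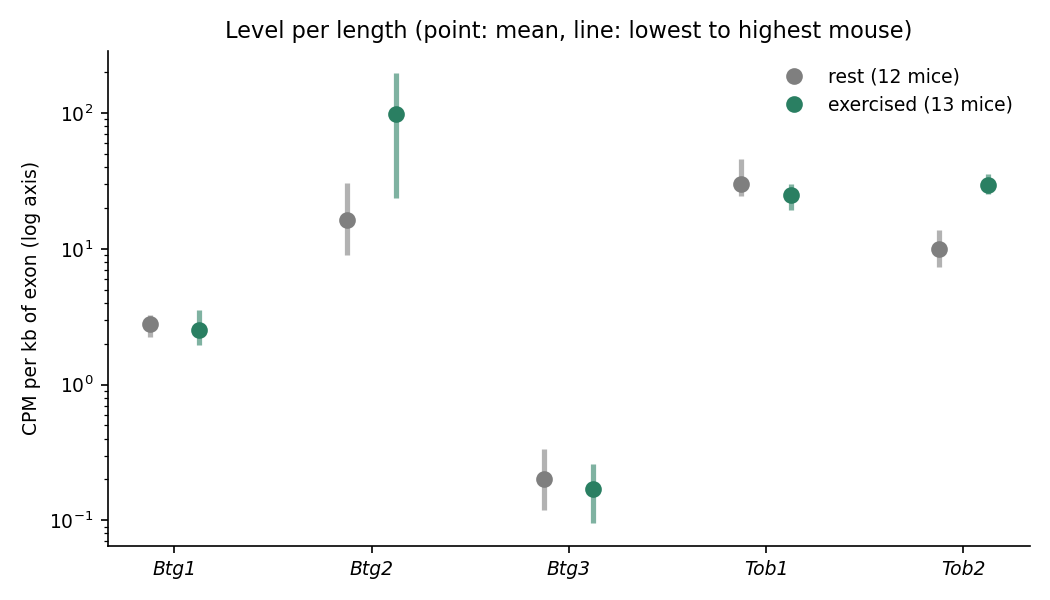
Level of the 5 members in CPM per kb of exon, on a log axis, at rest (grey, 12 mice) and 60 minutes after exercise (green, 13 mice); points are means and lines run from the lowest to the highest mouse. *Btg2* and *Tob2* are higher in the exercised mice, and *Btg3* lies below 1 CPM per kb in both states.

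Over both sexes, *Btg2* was the member with the largest response and the largest spread. In WT mice at rest it was 24.7, 34.8, 47.4, 55.6 and 72.5 CPM, a mean of 47.0 ± 18.5 CPM (SD, n = 5). In exercised WT mice it ran from 113 to 474 CPM with a median of 281, a mean of 268 ± 156 CPM (n = 7), and every exercised WT mouse was above every WT mouse at rest. The share of all genes that separate in this way in WT mice was not computed, and nothing is read from it. mD3AKO mice had 29.6 to 83.7 CPM at rest with a median of 32.3 (mean 42.7 ± 19.2, n = 7) and 65.0 to 541 CPM after exercise with a median of 202 (mean 270 ± 214, n = 6). In this genotype 4 of 6 exercised mice were above all mice at rest, since mouse 2 at rest reached 83.7 CPM and mice 3 and 6 after exercise had 80.0 and 65.0 CPM. Over both genotypes the mean after exercise was 6.04 times the mean at rest. The fitted log2 fold change was 2.58 (SE 0.350), with 2.51 (SE 0.517) in WT and 2.66 (SE 0.466) in mD3AKO mice. With 8 groups that include sex, it was 1.38 (SE 0.337) in females, where that of *Tob2* was higher at 1.75 (SE 0.116). In males the values were 3.44 (SE 0.327) for *Btg2* and 1.36 (SE 0.103) for *Tob2*. The members were not tested against each other.

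*Tob2* responded less than *Btg2* over both sexes, though not in females, and varied much less from mouse to mouse. In WT mice at rest it was 37.4, 38.4, 41.6, 47.4 and 54.5 CPM (mean 43.9 ± 7.11, n = 5), and in exercised WT mice 101 to 142 CPM with a median of 121 (mean 122 ± 13.7, n = 7). In mD3AKO mice it was 29.6 to 49.6 CPM at rest with a median of 37.1 (mean 37.4 ± 6.77, n = 7) and 103 to 139 CPM after exercise with a median of 113 (mean 115 ± 13.1, n = 6). Every exercised mouse was above every mouse at rest, in each genotype and over both. The same holds for 125 (0.765%) of all 16340 genes tested, and nothing is read from this share, since the family was chosen by this contrast. The mean after exercise was 2.96 times that at rest, and the fitted log2 fold change was 1.54 (SE 0.0814), with 1.47 (SE 0.119) in WT and 1.62 (SE 0.11) in mD3AKO mice. The coefficient of variation among exercised mice was 11.2% for *Tob2* and 65.7% for *Btg2*.

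The other TOB gene, *Tob1*, was the most abundant member at rest and did not share this response. It was 58.9, 67.9, 72.2, 74.5 and 74.7 CPM in WT mice at rest (mean 69.6 ± 6.60, n = 5) and 43.9 to 67.7 CPM with a median of 54.6 in exercised WT mice (mean 56.6 ± 8.25, n = 7). mD3AKO mice had 55.8 to 105 CPM at rest with a median of 62.8 (mean 67.6 ± 16.7, n = 7), where the highest value was that of mouse 15, and 61.5 ± 3.43 CPM (n = 6) without it. Exercised mD3AKO mice had 50.9 to 68.8 CPM with a median of 58.3 (mean 58.5 ± 7.04, n = 6), and the groups overlapped. The fitted log2 fold change for exercise was -0.25 (SE 0.0870), or -0.18 without mouse 15.

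*Btg1* stayed within 10.3 to 18.7 CPM in all 25 mice. Its group means were 13.9 ± 1.66 CPM (n = 5) and 13.0 ± 1.87 CPM (n = 7) in WT mice at rest and after exercise, and 15.4 ± 1.37 CPM (n = 7) and 13.7 ± 2.89 CPM (n = 6) in mD3AKO mice, with a log2 fold change for exercise of -0.13 (SE 0.0808). *Btg3* was near the limit of detection, with 3 to 19 reads per library and group means of 0.245 to 0.315 CPM. Its log2 fold change for exercise of -0.21 (SE 0.203) rests on these few reads. Some of them could belong to other genes, which was not tested. Of the words of 31 bases in its GENCODE M21 transcripts, 18.3% also occur in *Gm7334* and 14.7% in *Cxadr*. The longest of these transcripts has 3013 bases against 1439 bases of exon in the count table. The words therefore include sequence outside the exons counted, and the share within them was not determined. *Btg2* shared no word of 31 bases with another gene.

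**Figure D2:**
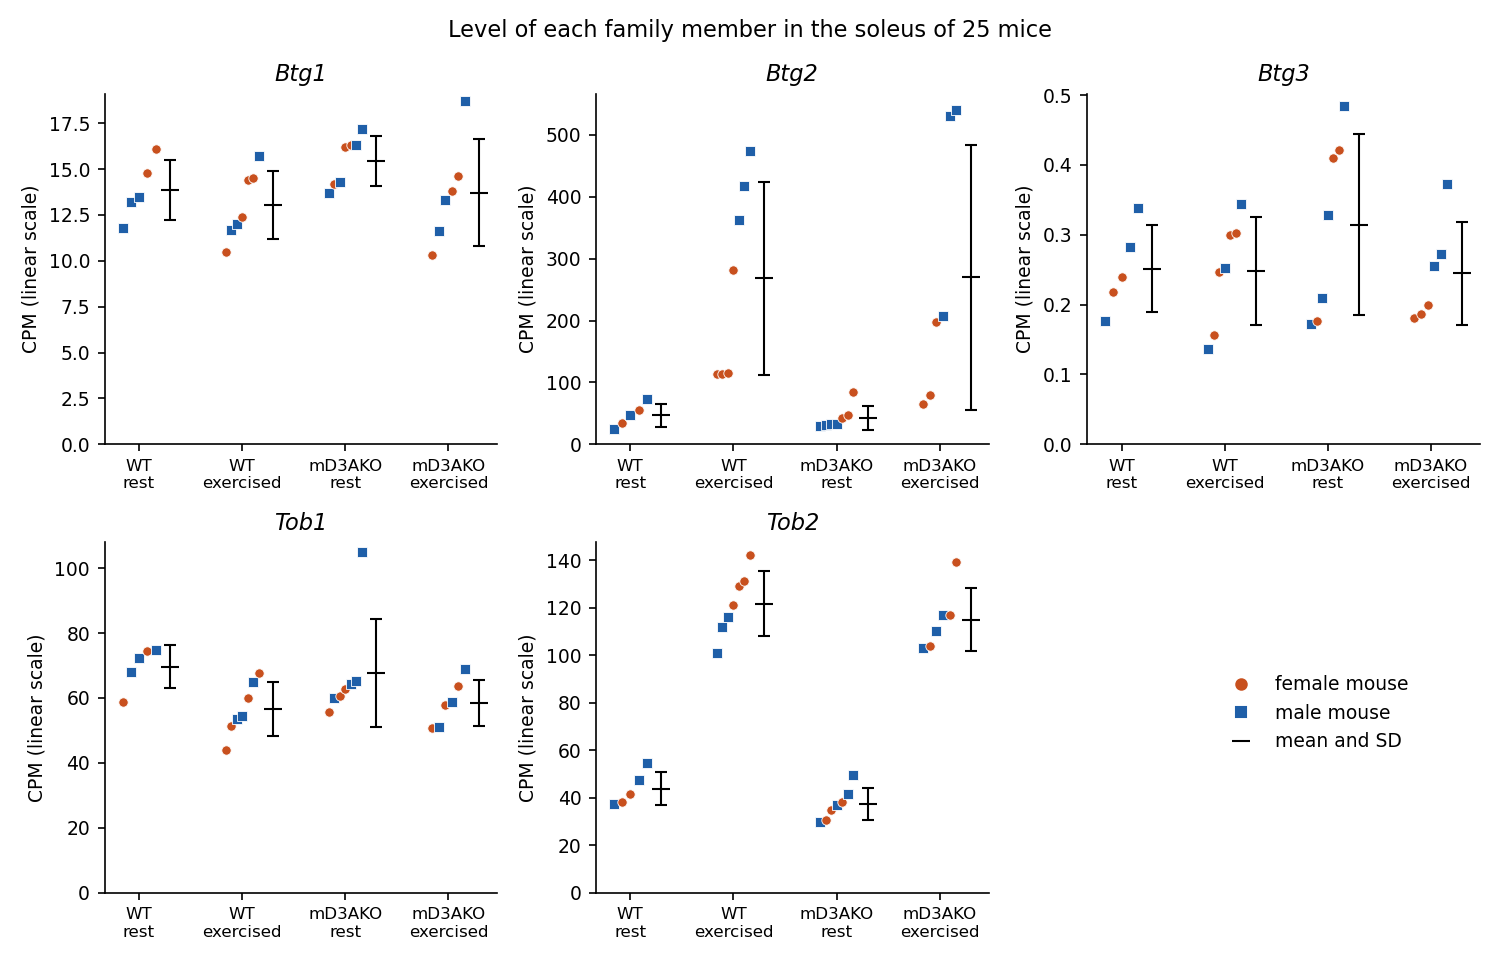
CPM of each member in each of the 25 mice, on linear axes that start at 0; circles are females, squares males, and the bars beside each group give its mean and SD. *Tob2* separates exercised from rested mice in both genotypes, *Btg2* does so in WT mice with a wide spread, and the single *Tob1* value of 105 CPM is mouse 15.

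Across the family, 2 of 5 members, *Btg2* and *Tob2*, passed edgeR's adjusted p of 0.05 for exercise, where 10.4% of all genes tested did. The same 2 of 5 passed in WT mice alone (3.59% of all genes) and in mD3AKO mice alone (6.02% of all genes). This contrast chose the family, so nothing is read from these counts. DESeq2 also called *Tob1*, as a fall, in the comparison over both genotypes. In the same comparison edgeR called this fall with library totals and without mouse 2, 4, 17, 18 or 20. *Btg2* did not pass when edgeR was fitted on females alone, over both genotypes or in either one. The median log2 fold change over the members was -0.13, and over all genes tested -0.001.

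Loss of DNMT3A did not go with a detectable difference in any member. By edgeR's quasi-likelihood test, 0 of 5 members passed for genotype, where 0.269% of all genes did, and neither edgeR nor DESeq2 gave any member an unadjusted p under 0.05. *Tob2* came nearest, with a log2 fold change of -0.16 in mD3AKO mice (95% interval -0.32 to 0.01, unadjusted p = 0.0575, adjusted p = 0.827), and 6 of 7 mD3AKO mice at rest were below the median of the WT mice at rest. For *Btg2* the difference was -0.06 (95% interval -0.73 to 0.61, adjusted p = 1). *Tob1* differed by 0.00 (95% interval -0.18 to 0.18), *Btg1* by 0.12 (95% interval -0.05 to 0.28) and *Btg3* by 0.17 (95% interval -0.25 to 0.59). For this average over rest and exercise the intervals of all 5 members exclude a change by 1 log2 unit, whereas for *Btg2* at rest alone the interval of -1.11 to 0.84 does not.

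The responses of the genotypes did not differ detectably either. For the interaction of genotype and exercise 0 of 5 members passed, as did 0.0% of all genes with both edgeR and DESeq2, and 0 of 5 had an unadjusted p under 0.05 in either. The response of *Tob2* was 0.15 larger on the log2 scale in mD3AKO mice (95% interval -0.18 to 0.47), and the difference for *Btg1*, whose log2 response was -0.17 in mD3AKO and -0.09 in WT mice, was -0.08 (95% interval -0.42 to 0.25). For *Btg2* the difference of 0.15 had an interval of -1.19 to 1.48 (SE 0.649) in this fit, which does not model sex, and with 8 groups that include sex it was -0.07 (SE 0.442). Fitted on 1 sex at a time, the interaction was 0.64 for males and -0.80 for females.

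**Figure D3:**
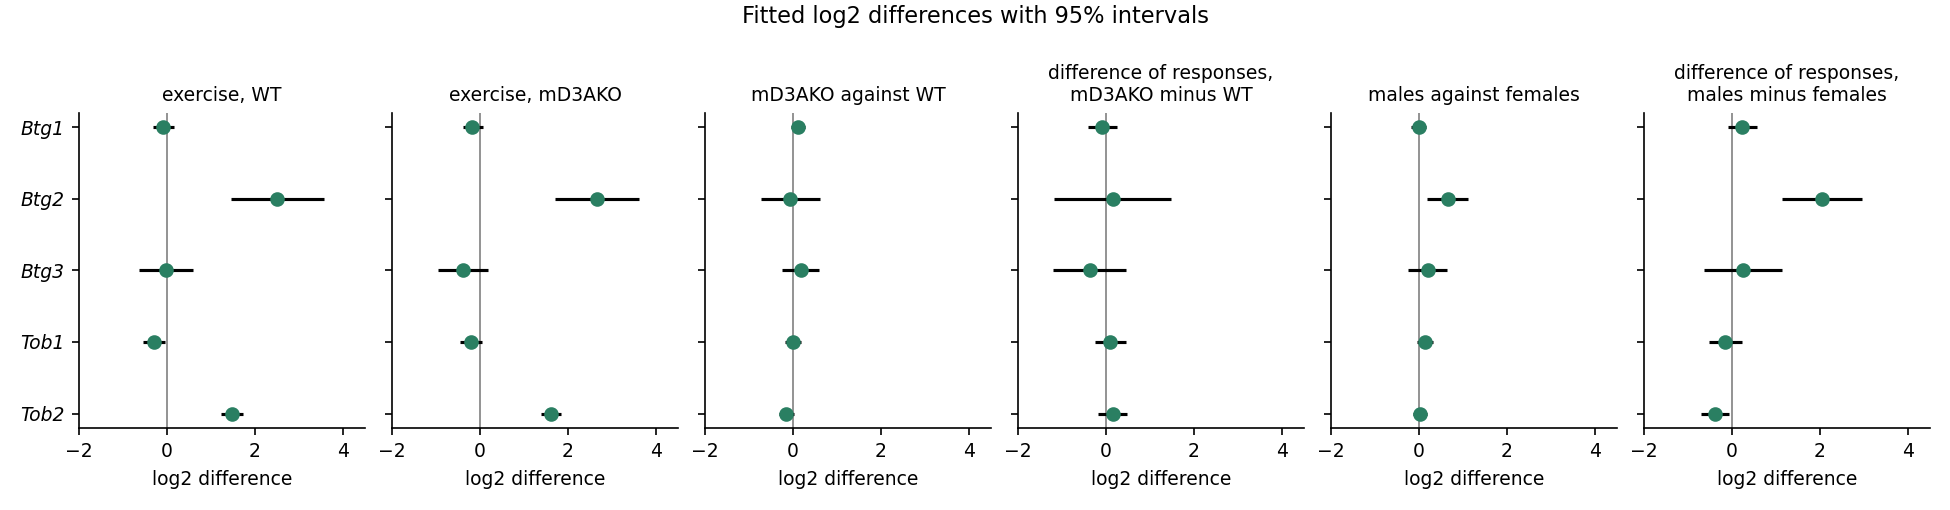
Fitted log2 differences of the 5 members with 95% intervals for 6 comparisons, all on the same axis. *Btg2* and *Tob2* lie to the right of 0 for exercise in both genotypes, the intervals of all members include 0 for genotype and for the difference between the responses of the genotypes, and *Btg2* lies at 2.05 for the difference between the responses of males and females.

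Sex was not part of the choice of the family and its test used 8 groups, 1 for each sex within each of the groups above. Much of the spread of *Btg2* after exercise lay between the sexes. The 6 exercised males had 207 to 541 CPM with a median of 446 (mean 422 ± 125), and the 7 exercised females 65.0 to 281 CPM with a median of 113 (mean 138 ± 75.8). Of the males, 5 were above all exercised females, and mouse 19 with 207 CPM was below mouse 22, a female with 281 CPM. The mean of the exercised males was 3.07 times that of the exercised females, a log2 difference of 1.68 (SE 0.305, 95% interval 1.04 to 2.31, adjusted p = 0.0039 by edgeR). This was the 1 of 5 members that passed for sex after exercise, where 1.66% of all genes did, and the adjusted p was at most 0.0211 whichever mouse was left out. The contrast was added after the data were seen. With edgeR, *Btg2* did not pass for sex over both states (adjusted p = 0.0763) or for the difference between the responses (adjusted p = 0.157), which were planned. Both genotypes showed the difference after exercise, with means of 418 and 155 CPM in WT males and females and of 427 and 114 CPM in mD3AKO males and females. At rest the mean was 38.6 ± 16.5 CPM in 7 males and 52.7 ± 18.9 CPM in 5 females, a difference that did not pass (log2 difference -0.38, SE 0.322, adjusted p = 0.663; -0.60 to -0.18 when 1 mouse was left out). Among mD3AKO mice at rest the mean was 31.5 CPM in 4 males and 57.7 CPM in 3 females, which include mouse 2 at 83.7 CPM. Among WT mice at rest it was 48.2 CPM in 3 males and 45.2 CPM in 2 females. Whether the genotypes differ in this was not tested.

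The response of *Btg2* to exercise was 3.44 (SE 0.327) on the log2 scale in males and 1.38 (SE 0.337) in females. The difference between these responses was 2.05 (SE 0.440, 95% interval 1.14 to 2.96), with an unadjusted p of 1.2e-04 and an adjusted p of 0.157, so that it did not pass over the 17389 genes tested, of which 0.046% did. With DESeq2 its adjusted p was 0.0285, and over the other settings apart from left-out mice it ran from 0.00152 to 0.162. Leaving out 1 mouse gave 0.0141 to 0.631. It passed without mouse 22 (0.0202) and without mouse 23 (0.0141), the 2 females with the highest *Btg2* after exercise, at 281 and 197 CPM.

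*Tob2* went the other way. Its response was 1.36 (SE 0.103) in males and 1.75 (SE 0.116) in females, and exercised males had 101 to 117 CPM with a median of 111 against 104 to 142 CPM with a median of 129 in exercised females, with overlap. The difference between the responses was -0.39 (SE 0.15, unadjusted p = 0.0153, adjusted p = 1 by edgeR). Of the 5 members, 0 passed for the difference between the responses with edgeR, 2 (*Btg2* and *Tob2*) had an unadjusted p under 0.05, and 1 (*Btg2*) passed with DESeq2. Averaged over rest and exercise, 0 of 5 members passed for sex with edgeR or DESeq2, where 8.15% of all genes did, and 1 had an unadjusted p under 0.05. That member was *Btg2*, at 0.65 higher in males (SE 0.223, adjusted p = 0.0763), and it passed without a filter on low counts (adjusted p = 0.023) and without mouse 2, 14, 19, 22 or 23 (adjusted p of 0.020 to 0.0487).

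Other measures moved with sex. Genes of slow fibers differed between males and females for 6 of 8 tested and those of fast fibers for 4 of 5, as did 1 of 3 satellite cell genes, and in exercised mice the summed level of the fast fiber genes was 25313 to 36516 CPM in males and 17181 to 28784 CPM in females. The composition of the libraries differed as well, with 13.4% to 17.0% mitochondrial and 9.84% to 11.8% ribosomal RNA counts in exercised males and 10.7% to 14.4% and 7.76% to 11.0% in exercised females. Under 5 other settings, among them library sizes without ribosomal and mitochondrial genes, the log2 difference of *Btg2* between the sexes after exercise was 1.55 to 1.68. The part of the marker genes and of any further difference between the libraries in it was not tested. The mouse numbers also ran in blocks, with males numbered 7 to 19 and females 1 to 6 and 20 to 25, so that sex and anything particular to mice 7 to 19 cannot be told apart. Among the exercised females, mice 3, 4, 5 and 6 had 65.0 to 115 CPM of *Btg2*, and mice 22, 23 and 25 had 281, 197 and 113 CPM.

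**Figure D4:**
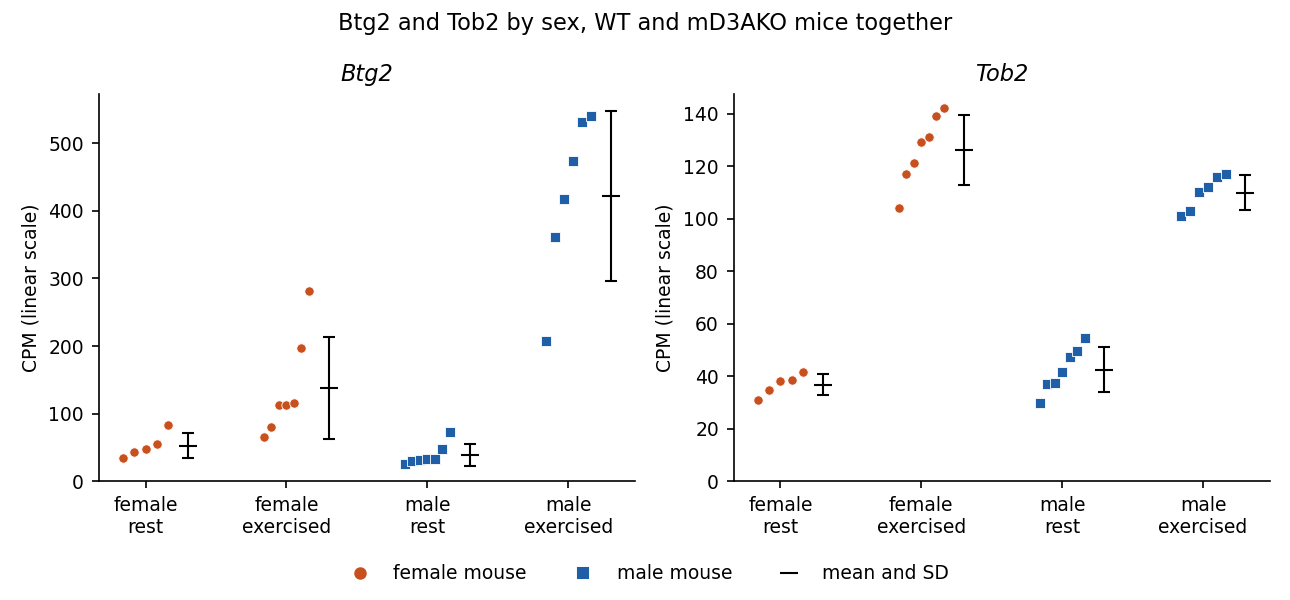
CPM of *Btg2* (left) and *Tob2* (right) in females (circles) and males (squares) at rest and after exercise, WT and mD3AKO mice together, on linear axes that start at 0; bars give mean and SD. Exercised males have 207 to 541 CPM of *Btg2* against 65.0 to 281 CPM in exercised females, while *Tob2* overlaps between the sexes.

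Whether members varied together from mouse to mouse was asked within each exercise state, for 10 pairs at rest and 10 after exercise, on log2 CPM with two-sided permutation tests. None of the 20 relations passed, with a lowest adjusted p of 0.315. Between the 2 members with a response, *Btg2* and *Tob2*, the correlation over 13 exercised mice was r = -0.43 (permutation p = 0.146, rho = -0.40, permutation p = 0.182, adjusted p = 0.662 and 0.687), and r = -0.23 without the 2 mice farthest from the median of *Btg2*. The negative sign did not hold within the sexes, where r was 0.69 over 6 males and 0.04 over 7 females. At rest their correlation was r = -0.02 over 12 mice (permutation p = 0.957, rho = 0.11, permutation p = 0.749). The lowest unadjusted p belonged to *Btg3* and *Tob2* at rest (r = -0.65, permutation p = 0.0235, rho = -0.65, permutation p = 0.0248, adjusted p = 0.315 and 0.464; r = -0.46 without 2 mice and -0.04 on CPM without TMM), which rests on few reads of *Btg3*. It was followed by *Btg1* and *Tob2* after exercise (r = -0.60, permutation p = 0.0315, rho = -0.49, permutation p = 0.0928, adjusted p = 0.315 and 0.464; r = -0.37 without 2 mice, -0.22 on CPM without TMM, -0.77 in 6 males and -0.61 in 7 females).

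The genes most like each member were taken as the 3 with the smallest root mean square difference of log2 CPM, after each gene was centred on its mean over the 25 mice, among 12686 genes. *Btg2* was closest to *Csrnp1*, a nuclear protein gene (0.553, where the deviation of *Btg2* itself was 1.44), *Nfil3*, which encodes a repressor of transcription of the bZIP type (0.655), and *Ier5*, an immediate early gene (0.665). All of these had higher means after exercise, at 5.32 and 34.6 CPM for *Csrnp1*, 11.6 and 51.5 CPM for *Nfil3* and 19.7 and 64.6 CPM for *Ier5*. In exercised males and females, *Ier5* had means of 102 and 32.5 CPM, *Csrnp1* 47.0 and 24.0 CPM and *Nfil3* 58.4 and 45.6 CPM.

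*Tob2* was matched far more closely, by *Tsc22d3*, a gene induced by glucocorticoids (0.191, against 0.813 for *Tob2* itself), *Bcl2l1*, which encodes the inhibitor of apoptosis BCL-XL (0.218), and *Kcna5*, a potassium channel gene (0.249). *Tsc22d3* went from 91.0 to 234 CPM on average between rest and exercise, *Bcl2l1* from 14.8 to 41.4 CPM and *Kcna5* from 8.22 to 20.2 CPM, and their exercised males and females had similar means, with 232 and 235 CPM for *Tsc22d3*. The genes nearest *Tob1* were *Rnf139* (0.154), *Trappc2* (0.169) and *Galc* (0.172), and those nearest *Btg1* were *Ifnar1* (0.137), *H3f3b* (0.142) and *Parp9* (0.147). These members varied by only 0.240 and 0.215 themselves. For *Btg3*, at its low counts, the nearest genes (*Camk2d*, *Katnbl1* and *Adprm*, 0.310 to 0.322 against 0.384 for *Btg3* itself) were matched on few reads.

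The CCR4-NOT complex, through which the family acts, and other genes tied to deadenylation outside it were described with a list of 21 genes. All were tested, and 2 rose after exercise and 0 fell, which is 9.5% of the list beside 10.4% of all genes. *Noct*, a circadian gene whose protein belongs to the family of CCR4 nucleases, went from 10.5 ± 1.84 CPM (n = 12) to 24.1 ± 4.96 CPM (n = 13), a log2 fold change of 1.21 (SE 0.10, adjusted p = 2.2e-09 by edgeR). *Pan3*, the partner of the nuclease PAN2, went from 19.1 ± 2.60 to 27.6 ± 2.55 CPM (log2 fold change 0.53, SE 0.0661, adjusted p = 2.3e-06). *Pan2* itself was 8.77 CPM at rest and 8.16 CPM after exercise (adjusted p = 0.245). None of the 11 *Cnot* genes passed, and those of the deadenylases bound by BTG/TOB proteins, *Cnot7* (36.2 and 35.3 CPM) and *Cnot8* (37.8 and 38.2 CPM), had log2 fold changes of -0.03 (SE 0.0704) and 0.01 (SE 0.0325). For genotype 0 of 21 passed with edgeR or DESeq2, where 0.269% of all genes did with edgeR, and 1 had an unadjusted p under 0.05.

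Of 20 genes of the cell cycle 19 were tested, all but *Ccnb1*, and 3 rose after exercise and 0 fell, or 15.8% beside 10.4% of all genes. In WT mice alone 0 of 19 passed with edgeR (4 with an unadjusted p under 0.05, and 1 with DESeq2), and in mD3AKO mice alone 1 of 19 did, or 5.3% beside 6.02% of all genes. *Cdkn1a*, which encodes the inhibitor of cyclin-dependent kinases p21 and is a target of p53 like *Btg2*, went from 10.4 ± 3.26 to 16.9 ± 4.39 CPM (log2 fold change 0.72, SE 0.162, adjusted p = 0.0035). *Ccnd3*, a D-type cyclin, went from 11.0 ± 2.04 to 14.2 ± 1.74 CPM (0.34, SE 0.0835, adjusted p = 0.0076), and *Pcna*, the clamp of DNA polymerase, from 16.6 ± 1.39 to 18.5 ± 0.938 CPM (0.15, SE 0.0443, adjusted p = 0.0226). *Ccnd1*, the gene of cyclin D1, was 13.8 ± 3.99 CPM at rest and 13.2 ± 2.75 CPM after exercise (adjusted p = 0.937). Markers of dividing cells were low, with *Mki67* at 1.81 CPM at rest and 1.03 CPM after exercise (adjusted p = 0.491). Of 7 genes for other partners of the family, among them *Prmt1*, *Smad1* and *Smad4*, 0 passed for exercise with edgeR or DESeq2, and 0 had an unadjusted p under 0.05.

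**Figure D5:**
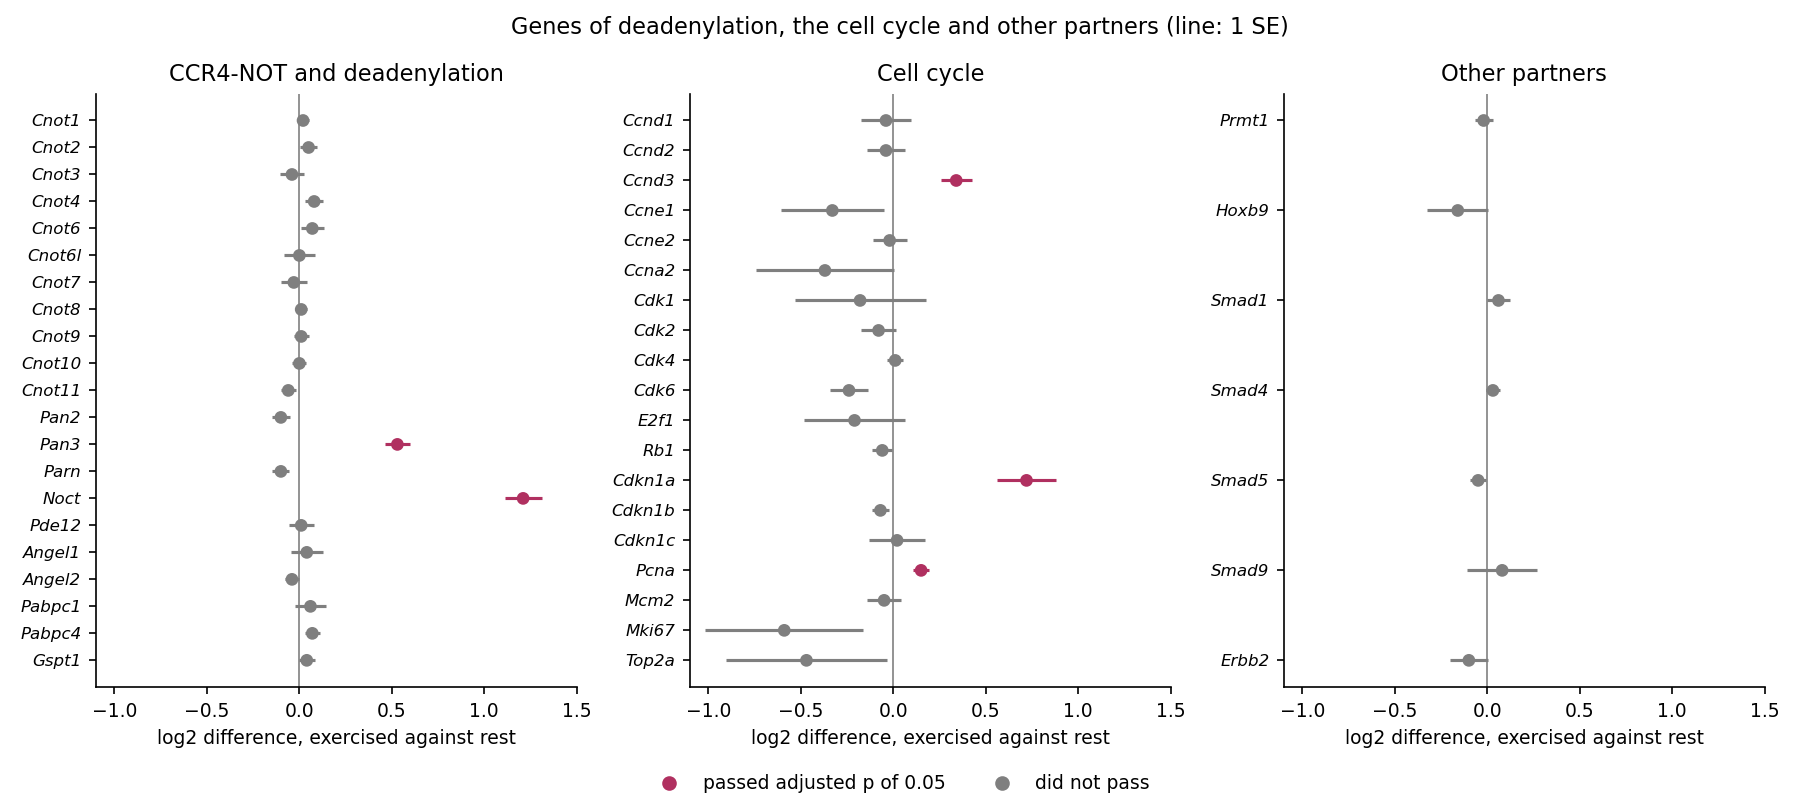
Log2 difference between exercised and rested mice, with lines of 1 SE, for tested genes of deadenylation (left), of the cell cycle (middle) and for other partners of the family (right); coloured points passed an adjusted p of 0.05. *Noct* and *Pan3* stand apart on the left and *Cdkn1a*, *Ccnd3* and *Pcna* in the middle.

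Markers of other cells were checked beside the response, since in whole muscle a higher level in fibers and more cells of another type cannot be told apart. Of the endothelial genes 4 of 5 fell after exercise and 0 rose, with a summed level of 323 to 443 CPM at rest and 277 to 362 CPM after exercise, and 2 of 3 satellite cell genes fell, at 6.51 to 11.1 CPM summed at rest and 5.07 to 8.97 CPM after exercise. Of the satellite cell genes, 1 of 3 also passed for genotype, at 5.07 to 9.28 CPM summed in WT mice and 6.37 to 11.1 CPM in mD3AKO mice. The part of these shifts in the values of the family was not tested. Of the immune genes 5 passed the filter on low counts and 0 of these passed for exercise, at 29.3 to 92.4 CPM summed over the 5 genes at rest and 18.1 to 91.0 CPM after exercise, and the lymphocyte genes *Cd3e* and *Cd79a* were at or under 0.102 and 0.280 CPM in every mouse. Genes of slow fibers (8), fast fibers (5), fibroblasts (4), adipocytes (4), blood (4) and Schwann cells (3) gave 0 calls for exercise.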

How the data were processed

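Soleus RNA of 25 mice was analysed. Per the labels and methods, the authors depleted ribosomal RNA, made strand-specific libraries (75-bp reads in the labels), aligned reads to mm10 and counted them per gene of GENCODE. The submitters' processing notes name FastQC 0.11.5, STAR 2.5.3a and featureCounts 1.5.3; the strand setting of the counting is not given in the sources used here. The deposited values are raw counts per gene and library, with exon length, and 0 columns belonged to other samples. Symbols (52403 of 52636 genes), longest transcripts and shared words came from GENCODE M21, whose gene models are not those of the counts.

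Counts were tested with edgeR 4.0.16 (R 4.3.3; TMM, filterByExpr with a minimum count of 10 and total of 15, glmQLFit and glmQLFTest), with 4 groups (16340 genes) and, for sex, 8 groups (17389 genes). Genes were called at a Benjamini-Hochberg adjusted p under 0.05 over all genes tested. Standard errors are the log2 fold change over the square root of F. Contrasts of sex within an exercise state and of exercise within a sex were added after the data were seen. Correlations used permutation tests of 100000 resamples (scipy 1.17.1). Promoter windows came from RefSeq. The fits were tested on simulated data. The alternatives were DESeq2 1.42.0 and its size factors, library totals, no filter, library sizes without ribosomal and mitochondrial genes, sex in the model, each sex alone, and leaving out each mouse. The members and lists were chosen with earlier results of these data known. All members, the 3 genes most like each in pattern, *Dnmt3a* and, of each list, the called genes of largest change are named; *Pan2*, the *Cnot* genes, *Ccnd1*, *Mki67* and the partner genes were added for their roles. 1 marker gene of immune cells is not reported here.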

Additional observations from a re-analysis of the deposited data

Results flagged for a closer look

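Of 20 groups of 5 to 7 mice examined for a mouse far from the rest, 2 held one, where chance gives about 1 in 20. Mouse 2, a female mD3AKO mouse at rest, had 83.7 CPM of *Btg2*, and the other mice of its group had 29.6 to 46.9 CPM. Mouse 15, a male mD3AKO mouse at rest, had 105 CPM of *Tob1*, and the others had 55.8 to 65.2 CPM. This is the library with 39.5% of its counts on ribosomal RNA, and the part of that in the value was not tested.

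The responses to exercise of males and females differed before adjustment for 2 members, by 2.05 on the log2 scale for *Btg2* (unadjusted p = 1.2e-04, adjusted p = 0.157 by edgeR) and by -0.39 for *Tob2* (unadjusted p = 0.0153, adjusted p = 1), and neither passed over all genes.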

How the results depend on the processing

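*Btg2* for sex after exercise, a contrast added after the data were seen, kept its direction and passed under every alternative run, at 1.54 to 2.00 on the log2 scale. The exercise contrast chose the family, so its values are given with no reading of the calls. For exercise *Tob2* was 1.35 to 1.74 over the alternatives, and *Btg2* was 1.38 to 3.43, with the lowest value in females alone, and there 1.78 in WT and 0.98 in mD3AKO mice. The response of *Btg2* in females from the fit with 8 groups, 1.38, was 1.06 to 1.58 when 1 mouse was left out. The difference between the responses of the sexes for *Btg2*, which did not pass in the fit reported, passed without a filter on low counts (2.05) and with DESeq2 (2.06) and was 1.85 to 2.38 when 1 mouse was left out. *Tob1* for exercise was -0.28 to -0.18 when 1 mouse was left out. *Btg3* for exercise was -0.291 to -0.137 when 1 mouse was left out, -0.104 in males alone and -0.344 in females alone.

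Counts over all genes moved by more than 1.5 times as follows. For exercise they were 927 with library totals, 966 in males and 512 in females, for exercise in WT mice 293, 207 and 186, and for exercise in mD3AKO mice 487, 628 and 184. For genotype they were 29 with library totals, 81 with DESeq2, 72 with sex as a term, 23 in males and 6 in females. For sex the count was 748 with library totals, a setting under which the median log2 difference of all genes was -0.123, against -0.005 in the fit reported, and 834 to 1740 when 1 mouse was left out, the lowest without mouse 20. For the difference between the responses of the sexes it was 3 with library totals, 23 without a filter, 20 with DESeq2 and 3 to 17 when 1 mouse was left out.

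Signs that turned, and the values given with them, belonged to differences that passed no test under any setting. For exercise in WT mice, *Btg1* was 0.029 in males and -0.148 to -0.028 with 1 mouse left out. *Btg3* was there 0.005 with sex as a term, 0.125 in females and -0.12 to 0.105 with 1 mouse left out. In mD3AKO mice the response of *Btg1* was -0.286 to -0.107 with 1 mouse left out, and its interaction of genotype and exercise was -0.191 to -0.011. For genotype, *Btg1* was -0.001 in females and 0.061 without mouse 19, *Btg3* was 0.09 without mouse 19, and *Btg2* was -0.222 to 0.042 with 1 mouse left out. *Tob1* was -0.051 with library totals, -0.001 without a filter, -0.003 with sex as a term, -0.008 with 8 groups, -0.062 in females and -0.07 to 0.024 with 1 mouse left out. For the interaction of genotype and exercise, *Btg2* was -0.059 with sex as a term, -0.074 with 8 groups, -0.799 in females, 0.643 in males and -0.172 to 0.399 with 1 mouse left out, and *Btg3* was 0.076 in males. For sex, *Tob2* was -0.097 with library totals and -0.026 to 0.051 with 1 mouse left out, and *Btg1* was -0.065 to 0.015. The correlation of *Btg2* and *Tob2* at rest was 0.345 without TMM and -0.198 to 0.323 with 1 mouse left out. Except where fewer mice or other genes entered the fit, the cause of these changes was not tested. No paired analysis was possible because each mouse number occurs once. Values of *Btg3* are limited by its 3 to 19 reads per library.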

Other observations

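Further genes of the family were close to silent in this muscle. *Btg4*, which acts in oocytes, had 0 to 3 counts per library and 23 in all, and the pseudogenes *Btg1-ps1* and *Btg1-ps2* had 0 and 2 counts in all.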
